A study of Mus musculus with 6 samples.

Results

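The nuclear hormone receptor genes described here, 9 in number, were followed in MC3T3-E1 osteoblasts that received vehicle or corticosterone, the main glucocorticoid of mice. They were the thyroid hormone receptors *Thra* and *Thrb*, the retinoic acid receptors *Rara* and *Rarg*, the orphan receptors *Nr2f1* and *Nr2f2* (COUP-TFI and COUP-TFII), the estrogen receptor *Esr1*, the estrogen-related receptor *Esrra*, and *Ppard*, a fatty acid-sensing receptor. The members were chosen by name, with earlier results of these data known, and found through their Ensembl identifiers. All 9 had a row among the 24016 genes of the table. All 6 cultures were the wild-type line MC3T3-E1 subclone 4, a single clone of mouse calvarial preosteoblasts, kept for 6 days in β-glycerophosphate (10 mM) and ascorbic acid (50 μg/ml). Of these, 3 then received vehicle and 3 received 100 nM corticosterone for 24 h, and the labels also list 10 nM calcitriol, the ligand of the vitamin D receptor, in the medium of both groups. The study's methods describe the 3 cultures of a group as biological replicates, all of them from the same clone.

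Nuclear receptors are transcription factors that bind a small lipophilic ligand in one domain and DNA in another. The glucocorticoid receptor, which corticosterone binds, acts mainly as a homodimer on palindromic elements, whereas thyroid hormone, retinoic acid and PPAR receptors pair with a retinoid X receptor (RXR) on repeats of the half-site AGGTCA. COUP-TFs and estrogen-related receptors bind related half-sites and have no established hormone of their own. In the osteoblast lineage, estrogen receptor α restrains bone loss, thyroid hormone and retinoic acid receptors tune maturation, and COUP-TFII is known to restrain osteoblast differentiation.

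To show the DNA next to these genes, the 250 bases before a RefSeq transcript start are given for the member with the largest change (*Nr2f2*) and for one start each of *Rarg* and *Thrb* that has a half-site, together with 30 bases just after a start of *Rara* that has one. RefSeq windows of GRCm38.p6, from 250 bases before to 50 bases after the start, covered 8 of the 9 members with 15 windows, and *Thra* had no entry. Capitals mark the half-site, which begins 225 bases before the start of *Rarg*, 184 bases before that of *Thrb* and at base 34 after that of *Rara*. For *Rarg* it lies on the strand opposite to the one shown, which therefore reads TGACCT.
Nr2f2, chr7:70366747-70366996, minus strand: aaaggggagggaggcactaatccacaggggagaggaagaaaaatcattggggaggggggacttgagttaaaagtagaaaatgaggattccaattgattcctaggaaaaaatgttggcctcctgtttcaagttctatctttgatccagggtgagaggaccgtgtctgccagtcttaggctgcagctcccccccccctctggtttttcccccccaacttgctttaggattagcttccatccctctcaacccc
Rarg, chr15:102257523-102257772, minus strand: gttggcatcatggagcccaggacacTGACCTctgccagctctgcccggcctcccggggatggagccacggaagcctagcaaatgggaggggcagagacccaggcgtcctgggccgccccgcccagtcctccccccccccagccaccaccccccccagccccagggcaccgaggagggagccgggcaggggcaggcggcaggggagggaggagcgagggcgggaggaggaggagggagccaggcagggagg
Thrb, chr14:17660710-17660959, plus strand: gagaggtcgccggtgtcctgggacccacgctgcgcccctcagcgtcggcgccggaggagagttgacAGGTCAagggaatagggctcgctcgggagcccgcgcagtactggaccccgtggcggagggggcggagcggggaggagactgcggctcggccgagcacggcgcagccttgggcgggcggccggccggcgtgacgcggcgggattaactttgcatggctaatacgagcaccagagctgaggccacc
Rara, chr11:98964892-98964921, plus strand: agcagattgcagcAGGTCAgtcctttggac
On both strands, AGGTCA was found in 3 of the 15 windows, and in 16.3% of the 32851 windows of all genes. The palindromic glucocorticoid element core GNACANNNTGTNC was in none of the 15 windows, and in 0.475% of all windows. These matches describe letters near annotated starts and say nothing of binding.

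Between 16020401 and 25638645 reads per library lay on genes, and the 3 corticosterone libraries (at most 18992332) were shallower than the 3 vehicle libraries (at least 19076586). Values are given as normalized counts, that is, reads divided by a size factor for each library, in which 3 reads correspond to 2.32 to 3.84. The glucocorticoid-induced genes *Tsc22d3*, *Fkbp5*, *Sgk1* and *Per1* all rose with corticosterone, by 1.49, 2.46, 2.75 and 2.02 on the log2 scale. All 9 osteoblast markers had a row, with a summed level of 1485480 to 1536592 with vehicle and 1286792 to 1345572 with corticosterone, and 8 of them fell. The remaining marker, *Spp1*, rose from 102650 ± 4555 to 120669 ± 1382. Most of the osteoblast sum was *Col1a1* and *Col1a2* (means of 709237 and 560839 with vehicle). Of the markers of other cells, 2 of 6 adipocyte genes had a row (sum 7.72 to 21.1 with vehicle and 108 to 133 with corticosterone, nearly all *Fabp4*, while *Plin1* was at 0 in 5 of the 6 libraries and had 2.56 in corticosterone replicate 3), 4 of 6 osteoclast or macrophage genes (1848 to 2008 and 1456 to 1521, carried by *Ctsk*), and 3 of 5 chondrocyte genes (1197 to 1504 and 780 to 951). The chondrocyte sum was nearly all *Col2a1*, which fell from 1297 ± 158 to 744 ± 81, while *Col10a1* rose from 57.9 ± 7.47 to 96.0 ± 13.3 (adjusted p = 0.0073, lost without vehicle replicate 3 or corticosterone replicate 1, up to 0.062) and *Matn1* was near 0. The 2 of 4 endothelial and the 2 of 4 muscle genes with a row summed to at most 12.8 and 23.9. The part of these marker shifts in the receptor values was not tested. With reads thinned to the smallest library, an alternative added after the data were seen, the log2 fold changes were -0.56 for *Nr2f2*, -0.43 for *Esr1*, -0.37 for *Thra*, -0.22 for *Rarg* and 0.25 for *Rara*, all with an adjusted p under 0.05, and -0.19 for *Nr2f1* (adjusted p = 0.0752).

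With corticosterone, 5 of the 9 receptors fell (*Nr2f2*, *Esr1*, *Thra*, *Nr2f1* and *Rarg*) and *Rara* rose, whereas *Thrb*, *Ppard* and *Esrra* did not pass the test (limma, adjusted p under 0.05 over all genes). The changes were modest, between -31.4% and +18.8%, and in bulk RNA fewer cells of a type and less RNA per cell cannot be told apart. Over all genes, 8.20% fell and 8.49% rose by the same test. Among the 7370 genes with a mean in the members' range, 16.0% fell and 16.1% rose. The median log2 fold change of the members was -0.20, against -0.01 over all genes. None of the 9 was past the threshold that also asks for an absolute log2 fold change over 1, by limma, edgeR or DESeq2, which 2.78% of all genes were by limma, while 8 of the 9 had an unadjusted limma p under 0.05, as had 26.3% of all genes. In 8 of the 9 the groups did not overlap, against 29.6% of all genes. Of all 24016 genes, 13880 had a mean of at least 10. Neither this share nor that of the unadjusted p was taken among genes in the members' range. Without vehicle replicate 3 the members passing were 3 (*Thra*, *Rara* and *Nr2f2*).

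**Figure D1:**
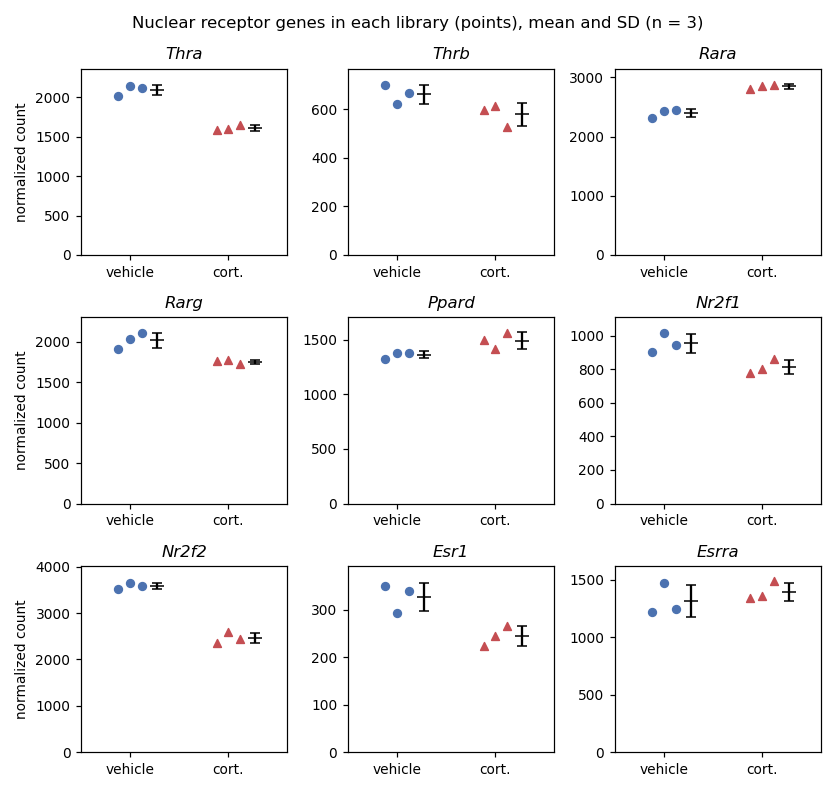
Normalized count (vertical axes, each from 0) of the 9 receptor genes in each library, with vehicle and corticosterone side by side; points are libraries, and bars give the mean and SD of 3. The groups are apart in every panel but that of *Esrra*, the gaps are widest for *Nr2f2* and *Thra*, and *Rara*, *Ppard* and *Esrra* are the panels with the higher mean after corticosterone.

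*Thra* (ENSMUSG00000058756; GRCm38 chromosome 11, 98740638 to 98769006, plus strand) encodes thyroid hormone receptor α, the main thyroid hormone receptor of bone. Its normalized count was 2016, 2145 and 2113 with vehicle and 1587, 1595 and 1648 with corticosterone. Every corticosterone library was thus below every vehicle library, and the mean went from 2091 ± 67.2 to 1610 ± 33.1 (SD, n = 3). *Thra* fell by 0.38 on the log2 scale (SE 0.05, limma adjusted p = 1.8e-05), or -23.0% (95% confidence interval -28.1% to -17.5%). Exons of *Thra* overlap those of *Nr1d1*, the circadian repressor REV-ERBα, which lies on the opposite strand, and the 263 shared bases make up 5.7% of the exon bases of *Thra*. *Nr1d1* rose from 364 ± 31 to 561 ± 52.0 (log2 fold change 0.62, adjusted p = 5e-05), opposite in direction to *Thra*. Whether the counting used the strand is not given in the sources used here, so reads in the shared bases cannot be assigned with certainty.

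*Thrb* (ENSMUSG00000021779; chromosome 14, 17660261 to 18038090, plus strand) encodes thyroid hormone receptor β, which dominates in liver and pituitary feedback. Its values were 698, 619 and 666 with vehicle and 597, 613 and 524.5 with corticosterone. The groups stayed apart by a narrow margin, since the highest corticosterone value lay just below the lowest vehicle value. The change was -0.19 on the log2 scale (SE 0.07) and missed the threshold (adjusted p = 0.089), with an interval of -21.6% to -2.64%. Without corticosterone replicate 3 it was -0.13. The 2 genes were compared by the ratio of their normalized counts per kilobase of merged exons. The ratio of *Thra* to *Thrb* was 5.09 ± 0.463 with vehicle and 4.49 ± 0.477 with corticosterone, and these ranges overlapped (two-sided exact permutation p = 0.2, adjusted over 3 pairs 0.2; the smallest p that 3 against 3 allows is 0.1). The log2 difference of the ratio was -0.18 (SE 0.11). Because the test cannot give a p under 0.1, it does not decide whether both receptors changed unequally.

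The retinoic acid receptors moved in opposite directions. *Rara* (ENSMUSG00000037992; chromosome 11, 98927818 to 98974942, plus strand) encodes RARα, which is broadly expressed, and it was the only member to rise by the test. Its values were 2319, 2429 and 2444 with vehicle and 2803, 2861 and 2878 with corticosterone. The gap between the groups was larger than the range within either of them, and the mean went from 2397 ± 68.2 to 2847 ± 39.4 (log2 fold change 0.25, SE 0.04, adjusted p = 0.00053), or +18.8% (interval 11.5% to 26.6%). *Rarg* (ENSMUSG00000001288; chromosome 15, 102234938 to 102257517, minus strand) encodes RARγ, the form known for its part in skeletal growth plates. Its values were 1916, 2034 and 2108 with vehicle and 1763, 1770.5 and 1723 with corticosterone. All corticosterone libraries lay below all vehicle libraries, with a narrower spread, and *Rarg* fell by 0.20 on the log2 scale (SE 0.05, adjusted p = 0.0071), or -13.2% (interval -19.2% to -6.71%). The call on *Rarg* was lost without vehicle replicate 3 (adjusted p = 0.0655) and without corticosterone replicate 3 (0.0545). The remaining gene of the family, *Rarb*, which retinoic acid itself induces in many cells, was near the floor, with a mean of 6.57 ± 6.15 with vehicle and 2.67 ± 0.594 with corticosterone (adjusted p = 0.65).

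The ratio of both genes was higher in every corticosterone library than in any vehicle library. Per kilobase, *Rara* stood to *Rarg* as 1.18, 1.17 and 1.13 to 1 in the vehicle libraries and as 1.55, 1.58 and 1.63 to 1 in the corticosterone libraries. The mean ratio went from 1.16 ± 0.0254 to 1.59 ± 0.0403, a 1.37-fold higher ratio (log2 difference 0.45, SE 0.03). The exact permutation p was 0.1, the smallest possible, and 0.15 adjusted over the 3 pairs. A ratio within a library does not depend on how libraries are scaled to each other.

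*Ppard* (ENSMUSG00000002250; chromosome 17, 28232700 to 28301474, plus strand) encodes PPARδ, which senses fatty acids and drives their oxidation. Its values were 1323, 1382 and 1382 with vehicle and 1501, 1410 and 1562 with corticosterone. The groups did not overlap, but corticosterone replicate 2 lay close to the vehicle libraries, and the log2 difference of 0.13 (SE 0.05, interval 1.24% to 18.1%) missed the threshold (adjusted p = 0.12).

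The COUP-TF genes both fell, *Nr2f2* more than any other member. *Nr2f2* (ENSMUSG00000030551; chromosome 7, 70351944 to 70366735, minus strand) encodes COUP-TFII, a regulator of mesenchymal cell fate. Its values were 3519, 3658 and 3584 with vehicle and 2360, 2589 and 2441 with corticosterone. The lowest vehicle library was far above the highest corticosterone library, and the mean went from 3587 ± 69.3 to 2463 ± 116. *Nr2f2* fell by 0.54 on the log2 scale (SE 0.05, adjusted p = 2.1e-07), or -31.4% (interval -35.8% to -26.6%). *Nr2f1* (ENSMUSG00000069171; chromosome 13, 78188973 to 78199757, minus strand) encodes COUP-TFI, best known from neural development. Its values were 904, 1015 and 941 with vehicle and 777, 801 and 858 with corticosterone. Here the groups were apart by less than the range within each, and *Nr2f1* fell by 0.23 on the log2 scale (SE 0.06, adjusted p = 0.016), or -14.8% (interval -22.3% to -6.62%). This call was lost on leaving out vehicle replicate 2 (adjusted p = 0.0753), vehicle replicate 3 (0.0884), corticosterone replicate 1 (0.101) or corticosterone replicate 2 (0.0737).

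The ratio of both genes per kilobase was higher in every corticosterone library than in any vehicle library. The ratio of *Nr2f1* to *Nr2f2* was 0.435, 0.470 and 0.445 with vehicle and 0.558, 0.524 and 0.596 with corticosterone. Its mean went from 0.450 ± 0.018 to 0.559 ± 0.0359, 1.24-fold higher (log2 difference 0.31, SE 0.06; exact permutation p = 0.1, adjusted 0.15). *Nr2f2* shares 8.12% of its 31-base stretches, read on either strand, with transcripts of other genes, the largest share among the members. The gene that shares the most of them is *B130024G19Rik*. Exons of *Nr2f2* overlap those of *B130024G19Rik* on the opposite strand over 643 bases, or 7.46% of its exon bases. Both figures thus describe in part the same bases. That transcript had 174 ± 16.5 with vehicle and 132 ± 46.7 with corticosterone (adjusted p = 0.16), a small level beside that of *Nr2f2*. *Nr2f1* overlaps the antisense transcript *A830082K12Rik* over 123 bases, which had 105 ± 4.82 and 121 ± 9.6 (adjusted p = 0.36). Their nearest relative *Nr2f6*, also a repressor, had 1503 ± 167 and 1374 ± 53.3 (adjusted p = 0.27), with overlapping groups.

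**Figure D2:**
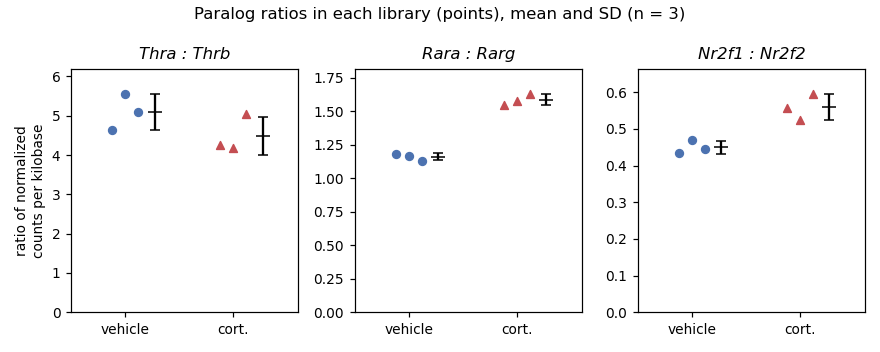
Ratio of normalized counts per kilobase (vertical axes, each from 0) for *Thra* to *Thrb*, *Rara* to *Rarg* and *Nr2f1* to *Nr2f2* in each library; points are libraries, and bars give the mean and SD of 3. The *Rara* to *Rarg* ratio is 1.13 to 1.18 with vehicle and 1.55 to 1.63 with corticosterone, that of *Nr2f1* to *Nr2f2* is also apart between the groups, and that of *Thra* to *Thrb* overlaps.

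*Esr1* (ENSMUSG00000019768; chromosome 10, 4611593 to 5005614, plus strand) encodes estrogen receptor α, through which estrogen protects bone. Its values were 349, 292.5 and 338 with vehicle and 223, 245 and 265 with corticosterone. It had the lowest normalized count of the members, and relative to the mean its libraries varied more than those of *Thra* or *Nr2f2*, but the groups did not overlap. The mean went from 326.5 ± 29.9 to 244 ± 21.1, and *Esr1* fell by 0.42 on the log2 scale (SE 0.10, adjusted p = 0.0055), or -25.2% (interval -35.1% to -13.7%). Without vehicle replicate 3 the adjusted p was 0.0778. The second estrogen receptor, *Esr2*, was scarce, with 22.5 ± 5.58 and 29.98 ± 7.51 (adjusted p = 0.47) and overlapping groups.

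*Esrra* (ENSMUSG00000024955; chromosome 19, 6910977 to 6921813, minus strand) encodes ERRα, a regulator of mitochondrial genes that does not bind estrogen. Its values were 1222, 1477 and 1247 with vehicle and 1344, 1364 and 1488 with corticosterone. Vehicle replicate 2 lay among the corticosterone libraries, so the groups overlapped, and no change was detected (log2 difference 0.09, SE 0.07, adjusted p = 0.45; interval -3.64% to 17.9%). The difference was 0.04 without vehicle replicate 1, 0.18 without vehicle replicate 2, 0.06 without vehicle replicate 3 and 0.05 without corticosterone replicate 3. Its overlap with *Trmt112* on the opposite strand is 73 bases, and *Trmt112* had 931 ± 43.0 and 928 ± 20.1 (adjusted p = 0.98). Of the close relatives of *Esrra* and *Ppard*, *Esrrg* and *Ppara* were at or under the floor in every library, and *Esrrb* and *Pparg*, the adipocyte PPAR, had no row in the table.

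To compare levels between genes, normalized counts were divided by the length of merged exons in kilobases. With vehicle the order was *Rara* (549 per kilobase), *Rarg* (474), *Thra* (453), *Nr2f2* (416), *Esrra* (299.9), *Nr2f1* (187), *Ppard* (181), *Thrb* (89.3) and *Esr1* (23.9). The ranges of the neighbours *Rarg* and *Thra*, and of *Nr2f1* and *Ppard*, overlapped, whereas the other neighbours were apart. With corticosterone *Nr2f2* (286) stood below *Esrra* (319) and *Nr2f1* (159.5) below *Ppard* (198.5), with no overlap of neighbours. The order depends on the length used: with the longest transcript of each gene, *Thra* (853) and *Nr2f2* (850) came first with vehicle, followed by *Rara* (708.5). The libraries of *Thra* and *Nr2f2* overlapped by that length. Neither change of order with corticosterone was seen in the means by that length. *Nr2f2* (583) stayed above *Esrra* (562) with corticosterone, but their libraries overlapped, so this order is not resolved. *Ppard* stood above *Nr2f1* with vehicle (366 and 297) as well as with corticosterone (400 and 253). Of the 35 superfamily genes with a row, *Rara* ranked 2 and *Esr1* 23 by merged exons with vehicle.

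The first of these 35 genes by merged exons was *Rxra* (556 ± 24.5 per kilobase), but *Rara* (549 ± 15.6) overlapped it, so their order is not resolved. *Rxra* encodes a partner with which RARs, thyroid hormone receptors and PPARs pair on DNA. *Rxra* had normalized counts of 3084, 3142 and 2887 with vehicle and 3499, 3427 and 3691 with corticosterone. It rose with no overlap of the groups, from 3038 ± 134 to 3539 ± 136 (log2 fold change 0.22, SE 0.05, adjusted p = 0.0029). *Rxrb* had 2017 ± 138 and 2209 ± 80.7 (adjusted p = 0.12) with overlapping groups, and *Rxrg* had no row.

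Among the other 40 genes of the superfamily, 26 had a row, of which 4 rose, 4 fell and 18 did not pass the test, with a median log2 fold change of -0.04. The vitamin D receptor *Vdr* rose most, from 1444 ± 131 to 5772 ± 269 (log2 fold change 2.00), followed by the bile acid receptor *Nr1h4* (96.5 ± 13.1 to 199.6 ± 1.47, log2 fold change 1.06), and *Nr1d1* and *Rxra* were the other two. Those that fell included, named after their values were seen, the glucocorticoid receptor *Nr3c1* (2912 ± 12.2 to 2150 ± 103; -0.44) and the immediate early genes *Nr4a2* (-0.42) and *Nr4a1* (-0.54). The call on *Nr4a1* was lost without vehicle replicate 2, without vehicle replicate 3 or without any one of the corticosterone libraries (adjusted p up to 0.22), and its log2 fold change was -0.32 without vehicle replicate 2. *Vdr* and *Nr1h4* were past the fold threshold, which none of the members reached, and calcitriol, the ligand of the *Vdr* product, is listed for both groups.

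**Figure D3:**
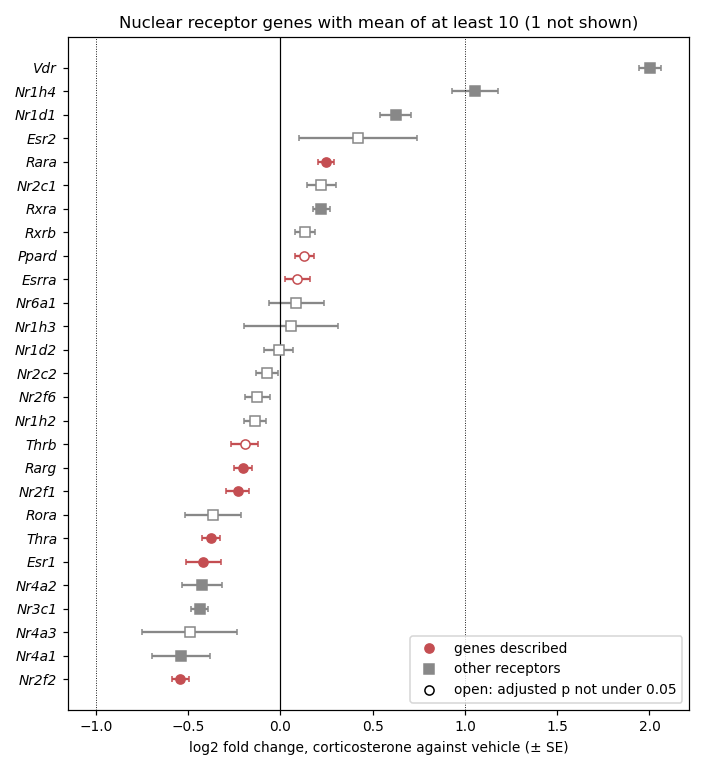
Log2 fold change of corticosterone against vehicle (horizontal axis, bars ± SE) for nuclear receptor genes with a mean normalized count of at least 10 (1 is not shown), with the 9 described genes marked apart from the rest; dotted lines mark a log2 fold change of -1 and 1. The 9 genes lie between -0.54 and 0.25, below *Vdr* at 2.00.

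Genes that make or break down retinoic acid, the RAR ligand, had log2 fold changes from -1.86 to 3.06 among those that passed the test. Of 15 listed genes 12 had a row, of which 5 rose, 3 fell and 4 did not pass the test, with a median log2 fold change of -0.06, or 0.22 over the 10 with a mean of at least 10. *Aldh1a1*, which oxidizes retinaldehyde to retinoic acid, had 24.3, 34.7 and 23.8 with vehicle and 221, 206.5 and 257 with corticosterone, and rose by 3.06 on the log2 scale (SE 0.18, adjusted p = 3.4e-09). *Dhrs3*, which reduces retinaldehyde back to retinol, had 95.7, 81.8 and 77.6 with vehicle and 339, 366 and 425 with corticosterone, and rose by 2.15 (SE 0.12, adjusted p = 1.5e-09). The genes of synthesis did not share a direction, since *Aldh1a3*, a second retinaldehyde dehydrogenase, fell from 238 ± 19.0 to 80.0 ± 15.5 (log2 fold change -1.59, adjusted p = 6.3e-07), while *Rdh10*, which makes retinaldehyde from retinol, rose from 183 ± 15.4 to 310 ± 11.5 (0.76, adjusted p = 1.8e-05). *Aldh1a3* and *Rdh10* were named after their values were seen.

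The CYP26 enzymes, which clear retinoic acid, were split as well. *Cyp26b1*, by far the most abundant of them, had 9028, 8505.5 and 8562 with vehicle and 14901, 13968 and 15024 with corticosterone, a rise of 0.75 on the log2 scale (SE 0.04, adjusted p = 1.4e-09). *Cyp26a1* went from 22.4 ± 7.69 to 6.38 ± 3.18 (log2 fold change -1.86, adjusted p = 0.016) and *Cyp26c1* from 22.7 ± 10.0 to 6.4 ± 1.88 (-1.76, adjusted p = 0.018), both on few reads. These last calls were each lost on leaving out 1 of 4 libraries, namely vehicle replicate 2, vehicle replicate 3 or corticosterone replicate 3 for both, corticosterone replicate 1 for *Cyp26a1* (adjusted p up to 0.14) and corticosterone replicate 2 for *Cyp26c1* (up to 0.12).

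**Figure D4:**
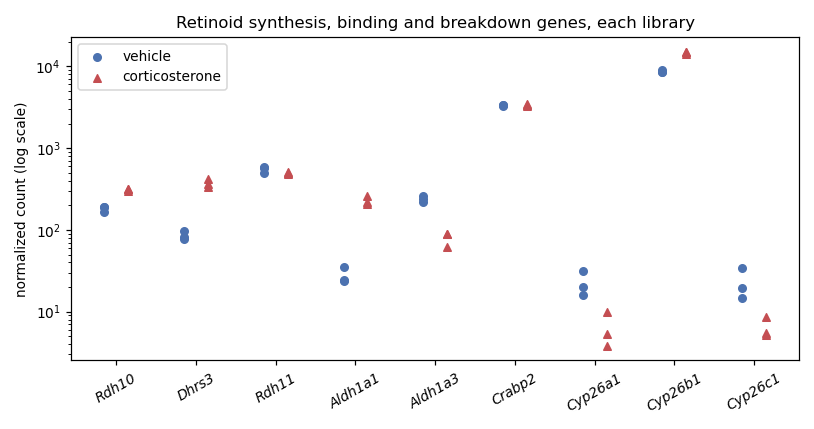
Normalized count (vertical axis, log scale) of genes of retinoid synthesis, binding and breakdown in each vehicle and corticosterone library, 3 points per group. Listed genes with a mean under 10, and a gene left out here, are not shown. *Aldh1a1* and *Dhrs3* are well above their vehicle values. *Aldh1a3* is well below, as are *Cyp26a1* and *Cyp26c1* on few reads. *Cyp26b1* lies far above the other *Cyp26* genes in both groups.

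For thyroid hormone supply, 2 of 7 listed genes had a row. *Dio3*, which inactivates thyroid hormone, had 2139, 1880 and 1735 with vehicle and 2360, 2129 and 2545 with corticosterone. Its groups overlapped although it passed the test (log2 fold change 0.29, SE 0.07, adjusted p = 0.0093), and the call was lost without vehicle replicate 2, vehicle replicate 3, corticosterone replicate 1 or corticosterone replicate 3 (adjusted p up to 0.17). *Dio2*, which activates the hormone, had 52.6 ± 5.43 and 41.7 ± 10.4 (adjusted p = 0.38). For estrogen synthesis and clearance, 3 of 7 listed genes had a row, with adjusted p-values from 0.19 to 0.98 and a median log2 fold change of 0.10.

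Known targets of each receptor were also counted, although most answer to several factors. Of 9 retinoic acid targets, all with a row, 4 rose (among them *Dhrs3*, *Cyp26b1* and *Tgm2*) and *Cyp26a1* fell, with a median log2 fold change of 0.02 (0.39 over the 7 with a mean of at least 10), and *Tgm2*, the tissue transglutaminase, went from 10892 ± 520 to 14309 ± 619 (0.39, adjusted p = 6e-06). *Dhrs3*, *Cyp26b1* and *Cyp26a1* are also among the retinoid supply genes above. Of 7 thyroid hormone targets 6 had a row, 1 rose and 1 fell, with a median log2 fold change of -0.57 (-0.24 over the 4 with a mean of at least 10). *Klf9*, a transcription factor that glucocorticoids also induce, rose from 470 ± 46.3 to 1860 ± 22 (1.99, adjusted p = 3.8e-12), and *Me1*, the NADPH-making malic enzyme, fell from 2106 ± 15.7 to 1567 ± 21.5 (-0.43, adjusted p = 2.6e-06).

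Of 8 estrogen targets 6 had a row, of which 3 rose and 1 fell, with a median log2 fold change of 0.08. *Rerg*, a RAS-like growth inhibitor gene named for its estrogen regulation, had 95.7, 169.8 and 101 with vehicle and 9.64, 15.5 and 8.96 with corticosterone, and fell by 3.41 on the log2 scale (SE 0.29, adjusted p = 2.9e-07). The chemokine gene *Cxcl12* moved the other way, from 14943 ± 1931 to 28273 ± 1965 (0.93, adjusted p = 7.4e-08). *Xbp1*, of the unfolded protein response, rose by 0.27 (adjusted p = 0.0037; 0.075 without corticosterone replicate 3), and *Ctsd*, a lysosomal protease, by 0.14 (adjusted p = 0.024; lost on leaving out any library but vehicle replicate 2, up to 0.14).

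All 8 PPARδ targets had a row, of which 2 rose and 1 fell, with a median log2 fold change of 0.09 (0.03 over the 7 with a mean of at least 10). *Angptl4*, an inhibitor of lipoprotein lipase, had 142, 205 and 161 with vehicle and 326.5, 332 and 330.1 with corticosterone (0.98, SE 0.12, adjusted p = 1.2e-05). *Acaa2*, of fatty acid oxidation, rose by 0.30 (adjusted p = 0.012), a call lost without vehicle replicate 1, vehicle replicate 3, corticosterone replicate 2 or corticosterone replicate 3 (up to 0.093). *Pdk4*, which blocks pyruvate entry into mitochondria, fell from 4214 ± 70.9 to 3432 ± 85.6 (-0.30, adjusted p = 5.3e-05). *Pdk4* is also among the 8 ERRα targets, of which 1 rose, 1 fell and 6 did not pass the test, with a median log2 fold change of 0.06. The one that rose was *Idh3a*, of the citric acid cycle, from 1577 ± 113 to 2403 ± 60.8 (0.61, adjusted p = 4e-07).

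Coregulators, which receptors recruit once on DNA, were all 21 in the table, and 3 rose, 2 fell and 16 did not pass the test, with a median log2 fold change of 0.02. The acetyltransferase gene *Ep300* had 1894, 1858 and 1867 with vehicle and 2575, 2655 and 2693 with corticosterone, a rise of 0.50 on the log2 scale (SE 0.04, adjusted p = 3.7e-07). *Ppargc1b*, a coactivator of ERRα, rose from 49.5 ± 2.91 to 84.7 ± 9.42 (0.77, adjusted p = 0.0052). *Zfpm2*, a cofactor known to bind COUP-TFII as well as GATA factors, fell from 104 ± 10.0 to 60.2 ± 5.75 (-0.80, adjusted p = 0.002). The steroid receptor coactivator *Ncoa1* fell from 636 ± 27.3 to 512 ± 32.1 (-0.31, adjusted p = 0.0039; 0.053 without vehicle replicate 3). The other that rose, *Tbl1x*, was named after its values were seen (0.17, adjusted p = 0.013), and its call was lost without vehicle replicate 3 or corticosterone replicate 1 (up to 0.07).

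The genes whose log2 values followed those of *Nr2f2* most closely over the 6 libraries, out of 13879, were *Fndc3a* (Pearson's r = 0.9991), *Apc2* (0.9986) and *Ube2l6* (0.9985), which fell by 0.54, 0.58 and 0.78 on the log2 scale. These correlations describe 6 libraries that fall into the 2 treatment groups.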

How the data were processed

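RNA-seq libraries of 3 vehicle-treated and 3 corticosterone-treated cultures were analysed. The library kit was NEBNext Ultra RNA, the submitters' processing notes name the build mm10, and the aligner, the counter and the use of strand are not given in the sources used here. The authors deposited 1 non-negative signal per gene and library. It is named FPKM, yet 100% of the values are whole multiples (within 0.01 reads) of 1 step per library, that is, read counts divided by a size factor. The test planned for FPKM was still used.

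Genes were tested with limma 3.58.1 (R 4.3.3) with a variance trend on log2(value + 0.1), adjusted by Benjamini-Hochberg over all 24016 genes. Fold changes are on that scale, which understates changes of low genes. The threshold (adjusted p under 0.05, log2 fold change over 1 in either direction) follows the study's DESeq2 analysis. edgeR 4.0.16 and DESeq2 1.42.0 were run on the recovered reads. Single ratios were compared by a two-sided exact permutation test. On simulated counts of 23704 genes, limma found 193 of 200 genes with a simulated log2 change of 0.5 and a mean of at least 200, and made 6 false calls. Smaller changes, such as those of every member but *Nr2f2*, were not simulated, so this recovery does not describe them. The simulated spread followed the trend with level only, without further differences between genes. Counting floors (3 reads) cover counting error only. Coordinates and lengths came from GENCODE M21 (GRCm38), which matched 23983 identifiers.

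Genes named were the members, their closest paralogs and RXR partners, glucocorticoid check genes, genes overlapping a member, up to 4 genes per list with the largest change among those that passed with a mean of at least 10, and the 3 genes most like the member that changed most. Single-gene results of 2 list genes are left out here, while the fits and list counts include them. The members and lists were chosen with earlier results of these data known. Alternatives were other pseudocounts, filters, scalings, variance settings and tools, the replicate block and leaving out each library. Corrections for length and GC content, with and without the block, and thinning to the smallest library were added after the data were seen.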

Additional observations from a re-analysis of the deposited data

How the results depend on the processing

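The 9 receptors kept the sign of their change in all 6 fits that left out a library and in all 18 other alternatives, 3 of them added after seeing the data. Of the 6 members that passed the test, 2 remained without the variance trend (*Thra* and *Nr2f2*; adjusted p = 0.118 for *Esr1*, 0.0804 for *Rara*, 0.167 for *Rarg* and 0.196 for *Nr2f1*). On leaving out each library the count was 3 to 6, with 3 without vehicle replicate 3. *Nr2f1* also missed with thinned reads (0.0752). Of the other genes named, apart from the osteoblast markers, *Rxra*, *Nr4a1*, *Ncoa1*, *Tbl1x*, *Dio3*, *Cyp26a1*, *Cyp26c1*, *Xbp1*, *Ctsd*, *Acaa2*, *Pdk4* and *Col10a1* missed without the variance trend. With upper-quartile scaling *Rxra*, *Tbl1x*, *Dio3*, *Ctsd* and *Acaa2* missed. *Tbl1x* and *Ctsd* missed with quantile normalization or scaling to the same total, and *Nr4a1* with a pseudocount of 0.01 or thinned reads. *Thrb* passed with upper-quartile scaling (0.0366) and with scaling to the same total (0.0398), which gave 7 members. The leave-one-out log2 fold changes were -0.58 to -0.51 for *Nr2f2*, -0.50 to -0.35 for *Esr1*, -0.40 to -0.36 for *Thra*, -0.27 to -0.19 for *Nr2f1*, -0.24 to -0.17 for *Rarg*, -0.24 to -0.13 for *Thrb*, 0.22 to 0.26 for *Rara*, 0.10 to 0.17 for *Ppard* and 0.04 to 0.18 for *Esrra*. edgeR, DESeq2, voom and the GC and length correction called the same 6 members.

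Both groups use the replicate numbers 1 to 3. Deviations of same-numbered libraries from their group means did not correlate (r = -0.04, 0.00 and 0.02 over 13880 genes). No shared deviation in expression was thus seen, but this cannot tell whether same-numbered cultures were handled together. With the replicate block 591 genes were past the threshold against 668, and 6 members passed the test. Depth limits *Rarb*, *Esrrg*, *Ppara*, *Cyp26a1* and *Cyp26c1* in particular, which had few reads.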
